A study of Mus musculus with 8 samples.

Results

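Glucagon is made as a larger precursor that is cut and trimmed inside secretory granules. The genes examined here encode that precursor and proteins that process prohormones in general, not all of which act on proglucagon. The set was defined by symbol: Gcg, the proglucagon gene, the convertase genes Pcsk1, Pcsk2 and Furin, the convertase-binding protein genes Pcsk1n and Scg5, the carboxypeptidase genes Cpe and Cpd, the amidating enzyme gene Pam, and Qpct. Of these 10 genes, 9 were matched to a probe set, 1 each, among 19494 named genes on the array. Pcsk2 was not analysed here. The cells were alphaTC1.9, a mouse line of glucagon-producing alpha cells derived from a pancreatic tumour, so all values come from a single cultured line. The 4 control arrays carried RNA of unmodified or control-treated cells (the labels say only "control"), and the 4 IDE-KD arrays carried RNA of cells in which insulin-degrading enzyme, encoded by Ide, had been knocked down by siRNA. Both groups were grown in 16 mM glucose without further treatment. The sample titles call the 4 replicates of a group biological, but whether they were separate cultures is not stated. The p-values therefore reflect variation among these 8 arrays, some of which may be technical.

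In the secretory pathway, subtilisin-like convertases cut prohormones after pairs of basic residues, and carboxypeptidases then remove the basic residues left at the new C terminus. In alpha cells prohormone convertase 2 releases glucagon from proglucagon, whereas in intestinal L cells prohormone convertase 1, the product of Pcsk1, releases glucagon-like peptides from the same precursor. Each of these convertases has a small binding protein in the granule, and further enzymes amidate the C terminus or cyclise an N-terminal glutamine of some peptides.

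None of the 9 genes differed detectably between knockdown and control cells. In limma, 0 of 9 passed an adjusted p under 0.05, against 0 of 22142 tested probe sets (0%), and 0 of 9 had an unadjusted p under 0.05, against 4.59% of all probe sets. The groups overlapped at every one of the 9 genes, whereas they did not overlap at 2.80% of all probe sets. The fitted log2 differences (IDE-KD minus control) ran from -0.12 for Pcsk1 to 0.20 for Furin, 6 above 0 and 3 below, with a median of 0.0043 against 0.0074 over all probe sets. At each of the 9 genes the 95% confidence interval lay within a 1.5-fold change in either direction, as it did at 83.6% of all probe sets, although Pcsk1 was not above background, Qpct was within the range of background rows and Furin was above 95% of them on only some arrays, so that intervals of these genes limit a change of signal and not one of mRNA. For 3 of the 9, Gcg, Cpe and Cpd, it lay within a 1.25-fold change, against 14.4% of all probe sets. Ide itself read 8.66, 8.62, 8.72 and 8.48 on the control arrays and 7.91, 8.14, 7.92 and 8.05 on the IDE-KD arrays. Its log2 difference was -0.62 (SE 0.12), lower on 4 of 4 IDE-KD arrays than on any control array (exact two-sided permutation p = 0.0286, the smallest possible here). Its unadjusted limma p of 0.000164 ranked 3 among the 22142 probe sets, but its limma p adjusted over all probe sets was 1.00. The genes below were thus examined at a fitted fall of the Ide signal of 1.53-fold, not at its loss.

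**Figure D1:**
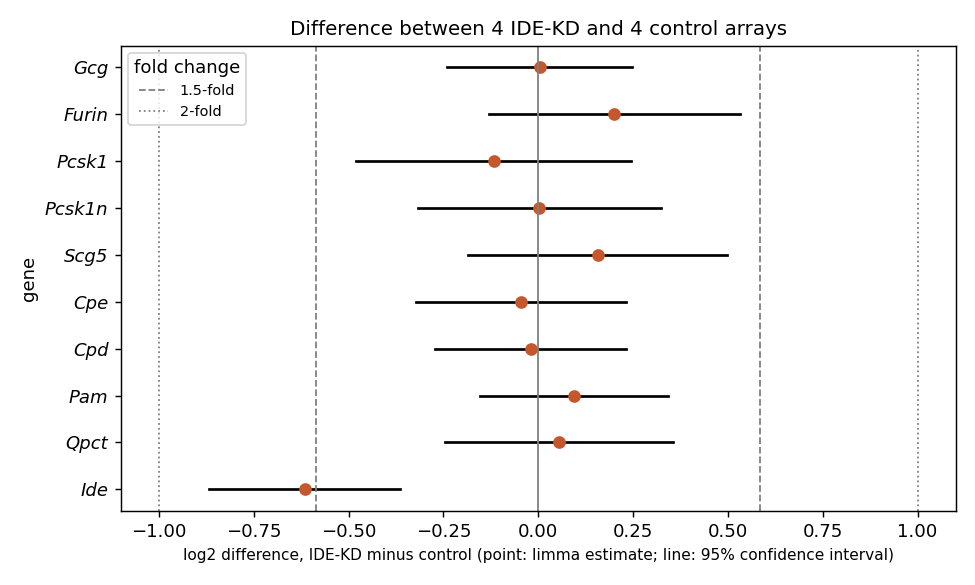
Log2 difference between 4 IDE-KD and 4 control arrays for the 9 processing genes and Ide, with the limma estimate as a point and its 95% confidence interval as a line. All 9 intervals include 0 and end inside the dashed lines that mark a 1.5-fold change, while the interval of Ide, around -0.62, lies below 0.

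Which of these transcripts the line expresses was read against the array's own 5222 intron control rows, probes against introns whose signal is mostly background. A level was set against these rows on the same array only, because signals of different probe sets also depend on their probes and do not order genes by abundance. Gcg exceeded 99.9% or more of the intron rows on every array. Pam (99.3 to 99.5%), Scg5 (98.7 to 99.2%), Cpd (98.6 to 99.0%), Cpe (98.5 to 99.0%) and Pcsk1n (96.2 to 98.3%) also exceeded 95% of them on all 8 arrays. Furin exceeded 90.8 to 95.4% of the intron rows and Qpct 68.7 to 76.4%, so the Qpct signal was within the range of the control rows. Pcsk1 exceeded only 4.40 to 16.5% and lay below the median intron row of 4.16 on every array, so it was not above background. Against all 6923 array control rows, which include probes for the exons of widely expressed genes, 2 of the 9 genes (Gcg and Pam) exceeded 95% on all arrays in place of 6.

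**Figure D2:**
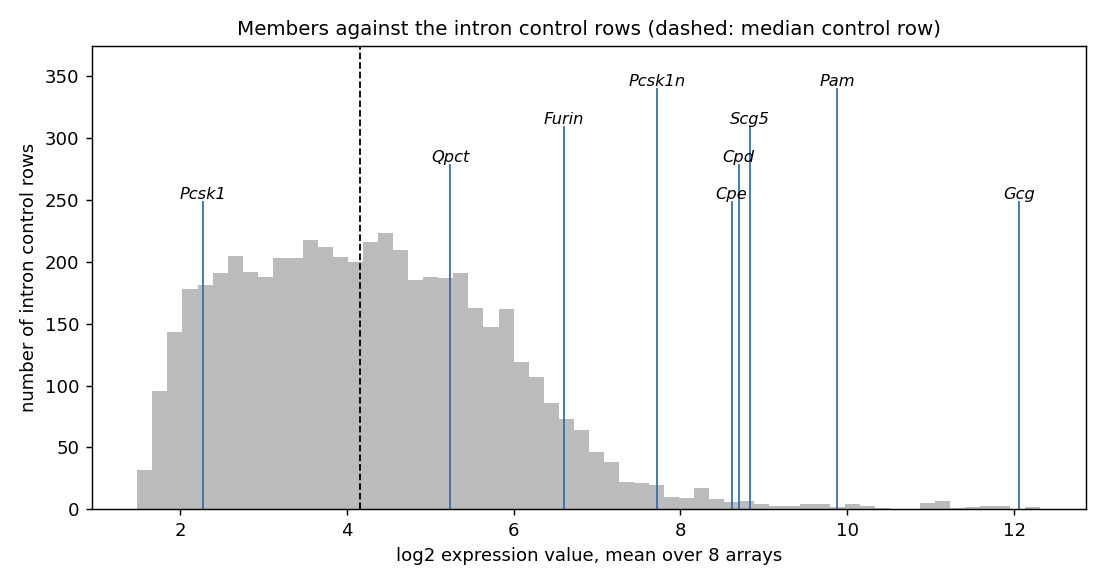
Histogram of the 5222 intron control rows by their mean log2 value over the 8 arrays, with the mean of each of the 9 genes as a vertical line (line heights carry no value) and the median control row of 4.16 dashed. Pcsk1 stands to the left of the median control row, Qpct and Furin stand among the control rows, and the other 6 genes stand in their upper tail.

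The upstream sequences of Gcg and Pcsk1 are shown because these genes lay at opposite ends of that comparison, one above nearly all intron rows and one below most of them. RefSeq promoter windows (build GRCm38.p6) were matched for 8 of the 10 genes, Cpe and Qpct being the others, and Pam and Furin had more than one annotated start. The 250 bases before the start of Gcg are chr2:62483654-62483903 on the minus strand, and those of Pcsk1 are chr13:75089607-75089856 on the plus strand. Capitals mark the letters TATAAA (the core of a TATA box) or their reverse complement in Gcg, and TGACGTCA (the palindromic cyclic AMP response element) in Pcsk1.
Gcg: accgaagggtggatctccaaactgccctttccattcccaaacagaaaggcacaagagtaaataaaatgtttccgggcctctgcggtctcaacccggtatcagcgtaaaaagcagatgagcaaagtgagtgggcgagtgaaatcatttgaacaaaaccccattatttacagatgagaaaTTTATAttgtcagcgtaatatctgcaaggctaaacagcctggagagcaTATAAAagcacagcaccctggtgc
Pcsk1: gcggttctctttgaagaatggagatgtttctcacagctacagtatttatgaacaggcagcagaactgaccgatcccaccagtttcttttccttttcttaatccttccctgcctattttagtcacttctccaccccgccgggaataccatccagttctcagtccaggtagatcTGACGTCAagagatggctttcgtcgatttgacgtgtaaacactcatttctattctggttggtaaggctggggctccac
In Gcg, TATAAA began at position -24 from the annotated start, counted with the base before the start as -1, with a further match on the opposite strand. In Pcsk1, TGACGTCA began at position -78. Searched on both strands over the 32851 windows of the same length in the table, TATAAA was present in 12.4%, TGACGTCA in 1.55%, CCAAT in 33.8% and GGGCGG, the core of a GC box, in 32.7%. Of the 10 windows of the set, 2 held TATAAA (Gcg and 1 of the Furin starts), 1 held TGACGTCA, 3 held CCAAT and 7 held GGGCGG. The Pam windows overlap almost fully, so their GGGCGG matches are largely the same sites, and the Pcsk2 window is counted too. None of these motifs is contained in another. GC content ran from 44.8% in Gcg to 83.2% at a Furin start, with a median of 52.4% over all windows. These matches describe letters and not factor binding, which was not measured.

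Gcg, the glucagon precursor gene, was read at 12.16, 12.06, 11.99 and 12.03 on the control arrays and at 11.94, 12.17, 12.12 and 12.02 on the IDE-KD arrays. The 2 sets of values interleaved, with both the lowest and the highest value among IDE-KD arrays. The log2 difference of 0.0043 (SE 0.11, 95% confidence interval -0.24 to 0.25; -0.0092 after subtracting array medians and 0.055 after quantile normalization again) corresponds to bounds of 0.847-fold and 1.19-fold. The within-group SD was 0.07 in control and 0.10 in IDE-KD cells (n = 4 each), against a median of 0.17 and 0.21 over all probe sets. With so flat a profile, the named genes nearest to it over the 8 arrays were Ttc19, a mitochondrial respiratory complex assembly gene, the centriole gene Poc5, and Carf, a transcription factor gene. Their array-centred log2 values departed from those of Gcg by 0.028, 0.029 and 0.033 on average, against a median of 0.16 over 11449 candidate genes, which is a description over 8 arrays.

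Among the convertases, Furin had the highest fitted difference of the set. Its product is the convertase of the trans-Golgi network, which acts on growth factor, receptor and matrix protein precursors in most cells. Control arrays read 6.67, 6.40, 6.53 and 6.41 and IDE-KD arrays 7.02, 6.54, 6.88 and 6.37. The lowest value of all 8 arrays was that of IDE-KD replicate 4, and the higher IDE-KD mean rested on replicates 1 and 3. The log2 difference was 0.20 (SE 0.15, 95% confidence interval -0.13 to 0.53, exact two-sided permutation p = 0.314), smaller than the spread of 0.30 (SD, n = 4) among IDE-KD arrays. IDE-KD replicates 1 and 3 also had the lowest SD over the tested probe sets (2.16 and 2.13, against 2.20 to 2.25 on the other 6 arrays) and the lowest mean over the exon control rows (6.95 and 6.92, against 7.05 to 7.13). Without these 2 arrays, and with all 4 control arrays kept, the Furin difference was -0.046. It was 0.094 without IDE-KD replicate 1 alone and 0.31 without IDE-KD replicate 4. Replicates 1 and 3 were also the 2 highest control arrays, so leaving out IDE-KD replicates 1 and 3 was not balanced between the groups. The part of the array properties in the Furin values was not tested.

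Pcsk1, the convertase gene of L cells and many neuroendocrine cells, read 2.45, 2.40, 2.58 and 1.90 on the control arrays and 2.33, 2.27, 2.39 and 1.87 on the IDE-KD arrays. Replicate 4 was the lowest array in each group. The log2 difference was -0.12 (SE 0.17, 95% confidence interval -0.48 to 0.25), -0.26 without control replicate 4 and -0.0027 without IDE-KD replicate 4. As both groups lay below the median intron row, this compares background signals. A fall of Pcsk1 mRNA, or a rise that stayed within background, could not be seen on this array. The interval therefore sets no limit on such changes. No IDE-KD array read above the median intron row, and whether this probe set responds to Pcsk1 mRNA was not tested.

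Of the convertase-binding proteins, Pcsk1n encodes proSAAS, an inhibitor of prohormone convertase 1. It read 7.68, 7.73, 7.64 and 7.82 on the control arrays and 7.86, 7.91, 7.28 and 7.85 on the IDE-KD arrays. IDE-KD replicate 3 was the lowest of all 8 arrays, while the other IDE-KD arrays were above every control array. The log2 difference over all arrays was 0.0030 (SE 0.15, 95% confidence interval -0.32 to 0.32), -0.010 after subtracting array medians, and 0.15 without IDE-KD replicate 3.

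Scg5 encodes the chaperone that prohormone convertase 2 needs to become active. Control arrays read 8.92, 8.81, 8.71 and 8.58, and IDE-KD arrays 8.57, 9.31, 8.79 and 8.97. The lowest and the highest value of all 8 arrays were both from IDE-KD cells, replicates 1 and 2. The log2 difference of 0.16 (SE 0.16, 95% confidence interval -0.18 to 0.50, exact two-sided permutation p = 0.429) was smaller than the IDE-KD spread of 0.31 (SD, n = 4), and it was 0.025 without IDE-KD replicate 2 and 0.27 without IDE-KD replicate 1. Without IDE-KD replicates 1 and 3 together, the arrays of lowest SD named above, it was 0.38 (limma adjusted p = 0.608, unadjusted 0.0321), the smallest p of any of the 9 genes under any alternative.

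The SD among IDE-KD arrays exceeded that among control arrays at 5 of the 9 genes and at 61.8% of all probe sets.

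**Figure D3:**
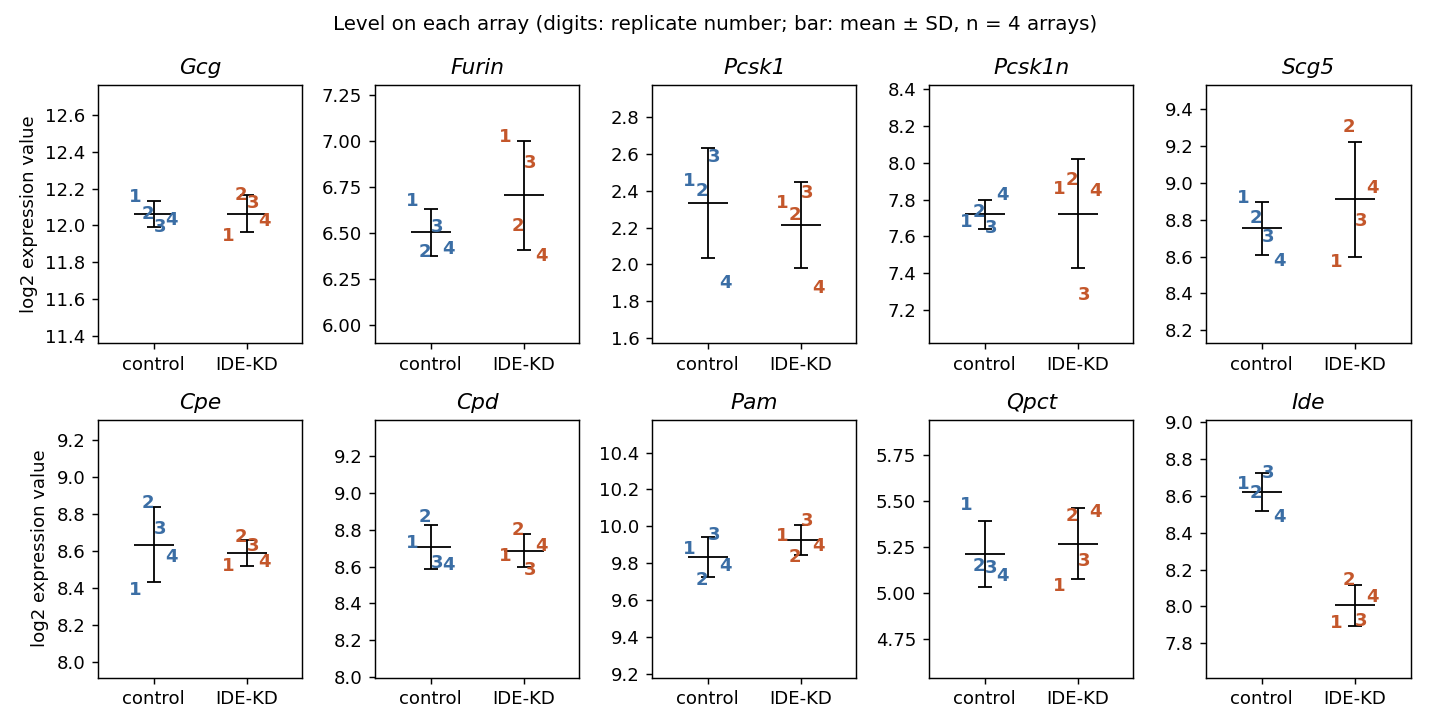
Log2 expression value of the 9 processing genes and Ide on each array, with the replicate number as the plotting symbol and the mean and SD of 4 arrays as bars. Every panel spans 1.4 log2 units around its own centre. The groups separate for Ide alone among the 10 genes drawn. The values of Furin, Pcsk1n and Scg5 spread more among IDE-KD than among control arrays.

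The carboxypeptidases were among the genes with the narrowest intervals. Cpe, whose product trims basic residues from prohormone fragments in granules, read 8.39, 8.86, 8.72 and 8.57 on the control arrays and 8.52, 8.67, 8.62 and 8.54 on the IDE-KD arrays. All 4 IDE-KD values lay inside the control range, and the log2 difference was -0.045 (SE 0.13, 95% confidence interval -0.32 to 0.23; 0.030 without control replicate 2). Cpd, which encodes a related carboxypeptidase of the trans-Golgi network, read 8.73, 8.87, 8.62 and 8.61 on the control arrays and 8.66, 8.80, 8.58 and 8.71 on the IDE-KD arrays. Replicate 2 was the highest array in each group. The Cpd difference was -0.021 (SE 0.12, 95% confidence interval -0.27 to 0.23; 0.0058 after cyclic loess and 0.033 without control replicate 2).

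Pam encodes the enzyme that amidates the C terminus of peptides ending in glycine, as in the amidated forms of glucagon-like peptide. Control arrays read 9.88, 9.71, 9.95 and 9.79 and IDE-KD arrays 9.95, 9.83, 10.03 and 9.89. The groups overlapped, with control replicates 1 and 3 above IDE-KD replicate 2. Each IDE-KD value lay above the control value of the same replicate number, but the labels do not say that same-numbered arrays are pairs. With the replicate number as a block, the unadjusted limma p was 0.445 (SE 0.12). The difference of 0.094 (SE 0.11, 95% confidence interval -0.15 to 0.34, exact two-sided permutation p = 0.229) was about as large as the within-group SDs of 0.11 and 0.083 (n = 4 each), and it was 0.053 without control replicate 2 and 0.060 without IDE-KD replicate 3.

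Qpct, the gene of glutaminyl cyclase, which converts an N-terminal glutamine to pyroglutamate, read 5.48, 5.15, 5.14 and 5.09 on the control arrays and 5.04, 5.42, 5.18 and 5.44 on the IDE-KD arrays. Control replicate 1 was the highest and IDE-KD replicate 1 the lowest of the 8. The difference was 0.055 (SE 0.14, 95% confidence interval -0.25 to 0.35), 0.14 without control replicate 1 and -0.0022 without IDE-KD replicate 4.

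**Figure D4:**
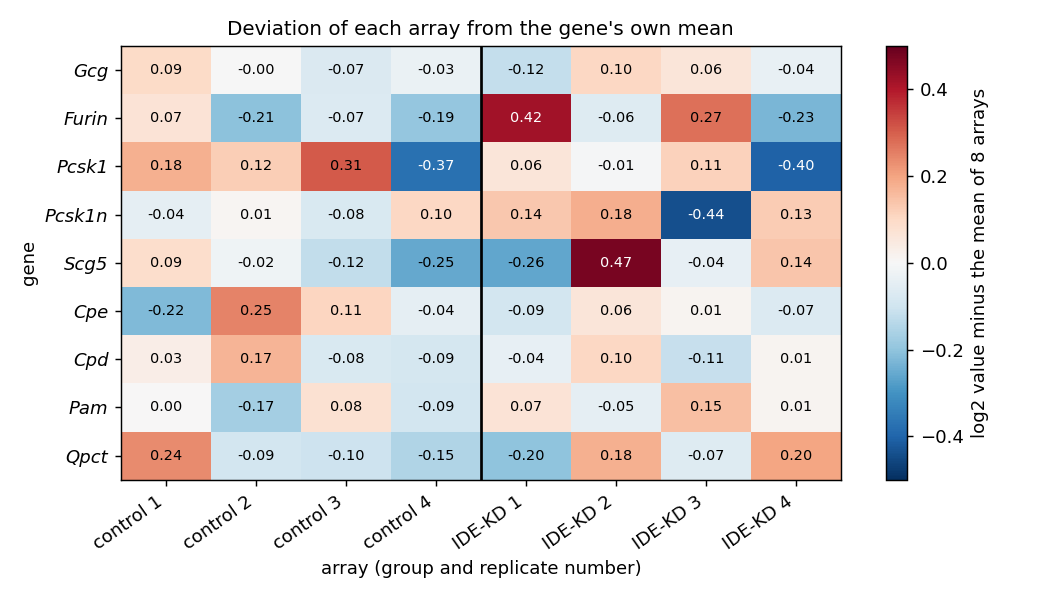
Deviation of each array from the gene's own mean over 8 arrays, in log2 units, for the 9 genes (rows) on the 8 arrays (columns, control left of the line). The largest deviations sit in single cells, such as 0.47 for Scg5 on IDE-KD replicate 2 and -0.44 for Pcsk1n on IDE-KD replicate 3, and control replicate 4 is the most uniform column, with 1 of 9 genes above its own mean (mean deviation -0.12, against 0.11 on IDE-KD replicate 2).

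Pairs of genes with related roles were also compared within arrays, where an equal shift of both values on an array cancels. Of 5 such contrasts, 3 needed Pcsk2 and were not run. The log2 signal of Cpe minus that of Cpd averaged -0.073 (SD 0.19) over the 4 control arrays and -0.097 (SD 0.094) over the 4 IDE-KD arrays, a change of -0.024 (SE 0.10, exact two-sided permutation p = 0.83, also after Benjamini-Hochberg adjustment over 2 contrasts). Pcsk1 minus Pcsk1n changed by -0.12 (SE 0.29, exact two-sided permutation p = 0.657, adjusted 0.83), a contrast that includes the background signal of Pcsk1. Neither change exceeded the spread between arrays.

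Genes that act beside the set were examined in 7 lists, of whose 116 entries 105 were measured, and 0 passed the adjusted threshold in limma. At an unadjusted p under 0.05 there were 8 of 105 genes, and 2 had groups that did not overlap, beside the 4.59% and 2.80% of all probe sets given above. Over all probe sets 52.1% stood above 0 and 47.9% below, which is the measure for the counts that follow. Of the other convertases, 2 of 5 stood above 0 and 3 below (median -0.0012; 0.023 after quantile normalization again and 0.028 after cyclic loess). Pcsk4 read -0.16 (SE 0.17) and Pcsk7 0.051 (SE 0.13) as log2 differences. The Pcsk4 signal exceeded on average only 75.2% of the intron rows, so it was within the range of the control rows. Of the other metallocarboxypeptidases, 7 of 12 were higher and 5 lower (median 0.061). Only Cpm, at -0.18 (SE 0.17), and Cpz, at -0.049 (SE 0.11), lay above the median array control row, and the midpoint of these values was -0.11. The count and the median of this list thus rested mostly on genes below that row. Cpxm2 stood at 0.48 (SE 0.14) and Cpa5 at 0.35 (SE 0.15), both from levels below the median intron row (2.45 and 2.19 in control cells). Cpxm2 was 1 of the 2 genes without overlap.

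The other was Atp7a, which encodes a copper transporter of the secretory pathway. The amidating enzyme needs copper and ascorbate, and of 8 genes that supply them 6 were higher and 2 lower (median 0.039). Atp7a read 5.27, 5.48, 5.54 and 5.39 on the control arrays and 5.70, 5.81, 5.65 and 5.55 on the IDE-KD arrays. Every IDE-KD value lay above every control value, by a log2 difference of 0.26 (SE 0.12, exact two-sided permutation p = 0.0286, unadjusted limma p = 0.0479, adjusted 1.00). The Atp7a signal exceeded on average only 78.1% of the intron rows, so it was within the range of the control rows. Cyb561, which carries electrons for ascorbate into granules, read 0.12 (SE 0.14).

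Genes of the signal peptidase and of entry into the endoplasmic reticulum, where preproglucagon loses its signal peptide, were 11 higher and 10 lower of 21 (median 0.00097; -0.013 after subtracting array medians). The signal recognition particle gene Srp19 read 0.31 (SE 0.14) and the translocon-associated gene Ssr3 -0.26 (SE 0.15). Other enzymes of prohormone and peptide maturation were 3 higher and 10 lower of 13 (median -0.057, or 0.085 without IDE-KD replicates 1 and 3). The tyrosine sulfation gene Tpst2 read 0.17 (SE 0.13) and Prcp, a lysosomal carboxypeptidase gene, 0.21 (SE 0.16). The Prcp signal exceeded on average only 77.2% of the intron rows. Prohormones and granins other than proglucagon were 17 higher and 12 lower of 29 (median 0.036, or -0.096 without IDE-KD replicates 1 and 3). Among them Tac1, the substance P precursor gene, read 0.53 (SE 0.18) from a level of 2.72 below the median intron row, and Vgf -0.39 (SE 0.14). These counts include genes below the median intron row in both groups, such as Penk and Nts. Among the genes of this list above the median array control row, the median was 0.010. The genes that on average exceeded 95% of the intron rows were Scg2 (0.010), Chgb (0.054), Scg3 (-0.074), Chga (-0.13) and Sct (-0.20). Regulators of glucagon gene transcription were 5 higher and 12 lower of 17 (median -0.041, or -0.096 to -0.0056 when 1 array was left out, the latter without IDE-KD replicate 3). Foxa1 read -0.42 (SE 0.15), from 4.74 to 4.33, a signal above only 57.7% of the intron rows, and the alpha cell homeobox gene Irx1 -0.18 (SE 0.11).

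The labelled cell type was checked against markers. Of 8 measured alpha cell markers, 5 exceeded 95% of the intron rows (Gcg, Irx2, Pou3f4, Slc38a5 and Slc7a2), and 0 lay below the median intron row. Of 8 beta cell markers 1 exceeded 95% of the intron rows (G6pc2), as did 1 of 5 delta, PP and epsilon cell markers (Rbp4). So did 1 of 6 enteroendocrine markers (Sct), and 0 of 16 fibroblast, immune, endothelial and exocrine markers exceeded 95%. None of these 43 markers passed the adjusted threshold in limma. Summed log2 values of the alpha markers ran from 68.8 to 69.8 on control and from 68.7 to 69.6 on IDE-KD arrays. The median tested probe set stood at 5.10 to 5.17 on the 8 arrays.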

How the data were processed

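Expression was measured on 8 arrays, 4 per group, and groups and replicate numbers come from the sample titles. The deposited table holds log2 expression values, 1 column per array; per the submitters' processing notes RMA, oligo and limma were used, with versions, roles and genome build not given in the sources used here. RMA in its usual form equalises the arrays' distributions, which removes any global change in RNA amount. Values were used as deposited. Of 29129 rows, 22142 transcript clusters were tested, 6923 array control rows and 64 unplaced rows were not. Symbols came from the platform table (1 symbol for 19527 tested rows, several for 0, none for 2615), and a gene with several rows (33 genes) was represented by its brightest row.

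IDE-KD minus control was fitted with limma 3.58.1 (lmFit, eBayes; R 4.3.3) over all tested rows without covariates, with Benjamini-Hochberg adjustment and a threshold of 0.05. Single values were also tested with an exact two-sided permutation test (scipy 1.17.1). On simulated data with the spread of these 22142 rows, 4 arrays against 4 and 200 changed rows, the fit called 39.7% of 1.5-fold, 97.5% of 2-fold and 100% of 3-fold changes at that threshold over 20 rounds. The simulated noise was independent between arrays and equal in spread in both groups, and the 3 fold sizes were mixed. These rates need not hold for a lone 1.5-fold change in the measured data, where 0 probe sets were called. The genes and lists were chosen with earlier results of these data known. All genes of the set were named, with Ide, the 2 genes of smallest limma p from each list and the 3 nearest to Gcg among named genes above the median intron row whose SD was at least that of Gcg; predicted genes, clones and the olfactory and vomeronasal receptor families were passed over. Alternatives were other scalings, variance models, array weights, a filter on dim rows, the block and leaving out arrays. The number of arrays limits the precision: SEs of the 9 differences ran from 0.11 to 0.17.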

Additional observations from a re-analysis of the deposited data

Results flagged for a closer look

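Of 20 groups of 4 arrays examined (the 9 genes and Ide in each group), 2 had 1 array far from the other 3, where about 1 in 20 would by chance. Pcsk1n on IDE-KD replicate 3, at 7.28, lay well below the other IDE-KD arrays. Qpct on control replicate 1, at 5.48, lay well above the other control arrays.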

How the results depend on the processing

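The count of probe sets called was 0 under all 16 alternatives, and so was the count among the 9 genes, whose smallest adjusted p under any of them was 0.608. Ide stayed below 0 in each, between -0.66 and -0.58 when 1 array was left out. Differences near 0 changed sign. Subtracting array medians gave -0.0092 for Gcg and -0.010 for Pcsk1n, and cyclic loess gave 0.0058 for Cpd. Quantile normalization again gave the highest Gcg value, 0.055. Leaving out 1 array gave -0.030 to 0.044 for Gcg (below 0 without control replicate 3 or 4 or IDE-KD replicate 2 or 3), -0.058 to 0.15 for Pcsk1n, -0.13 to 0.030 for Cpe, -0.058 to 0.033 for Cpd and -0.0022 to 0.14 for Qpct. Signs held for Furin (0.094 to 0.31), Scg5 (0.025 to 0.27), Pam (0.053 to 0.14) and Pcsk1 (-0.26 to -0.0027). The within-array contrasts ran from -0.33 to 0.036 for Pcsk1 minus Pcsk1n and from -0.11 to 0.033 for Cpe minus Cpd. IDE-KD replicates 1 and 3, chosen after seeing the data, were also left out together, with all control arrays kept. Furin then read -0.046 and Cpd 0.047, while Scg5 read 0.38, Qpct 0.22, Pcsk1n 0.16 and Pcsk1 -0.26. The cause of these changes was not tested. List medians changed sign when 1 array was left out for other convertases (-0.042 to 0.078), entry into the endoplasmic reticulum (-0.064 to 0.031) and other prohormones (-0.063 to 0.053). The interval lay within 1.5-fold for 7 to 9 of the 9 genes when 1 array was left out (7 without control replicate 1, with Scg5 and Furin outside), and within 2-fold for all 9. Against all array control rows, 2 genes in place of 6 exceeded 95% on every array; these rows include exon probes. Deviations of same-numbered arrays from their group means correlated at 0.088 to 0.13 over the tested probe sets. The highest value between different numbers was larger in each case (0.17 for replicates 1 and 3, 0.21 for replicates 2 and 4). Replicates 1 and 3 were highest in both groups at 6.87% of all probe sets and at 3 of the 9 genes (Pcsk1, Pam and Furin). For replicates 2 and 4 this held at 6.86% of all probe sets and at 0 of the 9 genes. These values do not exclude a pairing of arrays, which the main fit did not model, and its source was not tested. With the replicate number as a block the count called was 0 and the differences were the same by construction, with Furin at 0.20 (SE 0.13, adjusted p = 0.934). In that limma fit 1253 probe sets had an unadjusted p under 0.05, against 1017 in the main fit. The filter on dim rows left 12616 probe sets and dropped Pcsk1, so it gives no value for that gene. RMA values hold no detection calls, and levels near the intron rows, as for Pcsk1 and Qpct, limit what could be seen.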
